A study of Danio rerio with 4 samples.

Results

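Histones are the proteins around which DNA is wrapped, and their genes were followed here across an early step of oocyte growth in the zebrafish (Danio rerio). The genes were chosen by name from the table of mRNA levels: names beginning, in any case, with hist and a digit, with h2af, h3f3 or h1f, or equal to h1m. This gave 24 of 29458 gene names, from 30 Ensembl gene IDs and 39 transcript rows. Of these names 15 carry the hist names of replication-dependent histones, 6 are variant core histones and 3 are linker histones.

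Nucleosomes hold the core histones H2A, H2B, H3 and H4, and linker histone H1 sits where DNA enters and leaves them. Replication-dependent histone genes lie in arrays of near-identical copies, are transcribed mainly in S phase and, in dividing somatic cells, give mRNAs that end in a stem-loop in place of a poly(A) tail. Genes of variant histones such as H3.3, H2A.Z and macroH2A lie apart from these arrays, give polyadenylated mRNAs and serve chromatin outside S phase too, while the H2A.X gene of mammals gives both kinds of mRNA. Oocytes of fish and frogs store histones and histone mRNAs for the rapid divisions of the early embryo, with an oocyte type of linker histone in place of the somatic types.

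Pre-vitellogenic (PV) follicles, the later stage, which precedes yolk uptake, were set against primary growth (PG) follicles, in which the oocyte is small. The fish were of strain AB and 3 months old, and their follicles were sorted by size and morphology, so that each holds an oocyte with its somatic follicle layer. Each stage gave 1 mRNA library, so replicate error is unknown and nothing below was tested. The sample titles read PG for both stages; the stages were told apart by their cell type labels and by the prefixes of the table columns. Pooling of fish, any poly(A) selection and the read depth are not given in the sources used here.

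Levels are in FPKM, read fragments scaled to transcript length and to library size, summed over the transcripts of a name. Differences are log2((PV FPKM + 1) / (PG FPKM + 1)), so a positive value means higher in PV follicles, and the added 1 FPKM understates the difference of low genes. A name was compared if either library had at least 1 FPKM of it, and was called where the libraries differed by 2-fold or more. By this rule 29.1% of 14480 names compared were higher in PV follicles and 6.53% were lower, with a median difference of 0.50. Of the histone names, 23 could be compared, and 15 of these were lower, 3 were higher and 5 were within 2-fold. Their median difference was -1.76. At both stages 14 of the 23 reached 1 FPKM, and 8 of these 14 were lower; another 8 were compared only through their PG level and 1 only through its PV level.

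Sums of the classes gave 64.7 FPKM in PV and 253 FPKM in PG follicles for the replication-dependent names, a log2 ratio of -1.97. For the variant core names the sums were 2161 FPKM in PV and 4165 FPKM in PG follicles, a log2 ratio of -0.95. Linker names summed to 724 FPKM in PV and 2343 FPKM in PG follicles, a log2 ratio of -1.69. Among names found by the rule, all 3 classes were therefore lower in total in PV follicles. The replication-dependent class had the widest ratio and the variant core class the narrowest. FPKM is scaled to library size, so a lower sum need not mean less histone mRNA per follicle. In bulk libraries such as these, fewer cells of a type, less RNA per cell and more RNA of other genes cannot be told apart. Histone names took 0.485% of all FPKM in PV and 0.926% in PG follicles. Within that histone total, replication-dependent names made up 2.19% in PV and 3.74% in PG follicles. These sums, ratios and shares cover only genes found by the name rule. Abundant clone-named genes that may be H3 and H2A genes, described further on, are not in them. The order of the class ratios therefore holds only for the names counted.

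**Figure D1:**
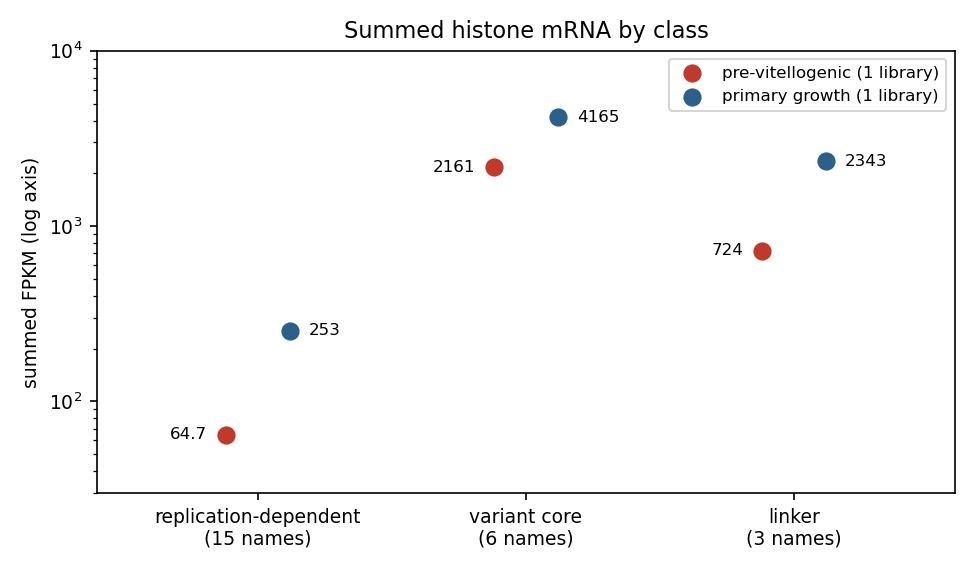
Summed FPKM (vertical log axis) of the 3 histone classes (horizontal axis) in the PV library (red) and the PG library (blue), 1 library each and so without error bars. Each class sum is lower in the PV library, with 64.7 against 253 FPKM for replication-dependent, 2161 against 4165 FPKM for variant core and 724 against 2343 FPKM for linker names.

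Replication-dependent names comprised 12 names for histone H4, 2 for H3 and hist2h2l. Of 14 compared, 12 were lower in PV follicles, 1 was within 2-fold and 1 was higher, against the 6.53% lower and 29.1% higher among all names, and their median difference was -2.19. Of these 14, 7 were at 1 FPKM or more at both stages, and 5 of the 7 were lower. H4 copies are near-identical and may share reads, so counts that include them, here and below, are not counts of independent measurements. Differences of the 11 H4 names compared ran from -3.41 to -0.93, and 10 of the 11 were lower in PV follicles. However, 7 of the 11 lay under 1 FPKM in PV follicles and were compared only through their PG level, so they could only be on the lower side. Only 4 H4 names reached 1 FPKM at both stages, and of these 3 were lower. Their level, summed over all 12, was 15.3 FPKM in PV and 136 FPKM in PG follicles.

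The most abundant was HIST1H4A (chromosome 7, 6753295 to 6753606 on the Zv9 build), at 5.80 FPKM in PV and 49.96 FPKM in PG follicles. Its difference was -2.91, and it made up 37.8% of the H4 sum in PV and 36.7% in PG follicles. HIST1H4I was at 3.19 FPKM in PV and 20.3 FPKM in PG follicles, a difference of -2.34. For HIST1H4K the levels were 1.25 FPKM in PV and 16.3 FPKM in PG follicles, a difference of -2.94. These 3 names stood above the other H4 names in PG follicles, whose highest level there was 9.63 FPKM. That level belonged to HIST4H4 (2 of 2), which was listed at 0 in PV follicles, as was HIST1H4H, at 3.38 FPKM in PG follicles. No fold is given against a value listed at 0.

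Of the rest, HIST2H4B (2 of 2), HIST4H4 (1 of 2), HIST1H4D, HIST2H4A and HIST1H4E, lay between 0.388 and 0.872 FPKM in PV and between 5.13 and 7.73 FPKM in PG follicles. Each was thus under the 1 FPKM mark in PV and above it in PG follicles. HIST1H4L, at 1.69 FPKM in PV and 4.14 FPKM in PG follicles, had a difference of -0.93, within 2-fold on the scale with 1 FPKM added and 2.45-fold lower in PV follicles as deposited. The remaining name, HIST2H4B (1 of 2), was at 0.494 FPKM in PV and listed at 0 in PG follicles, and was too low to compare. The split of reads between these copies is uncertain, since H4 genes are near-identical in their coding sequence, and the sum is the firmer value.

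**Figure D2:**
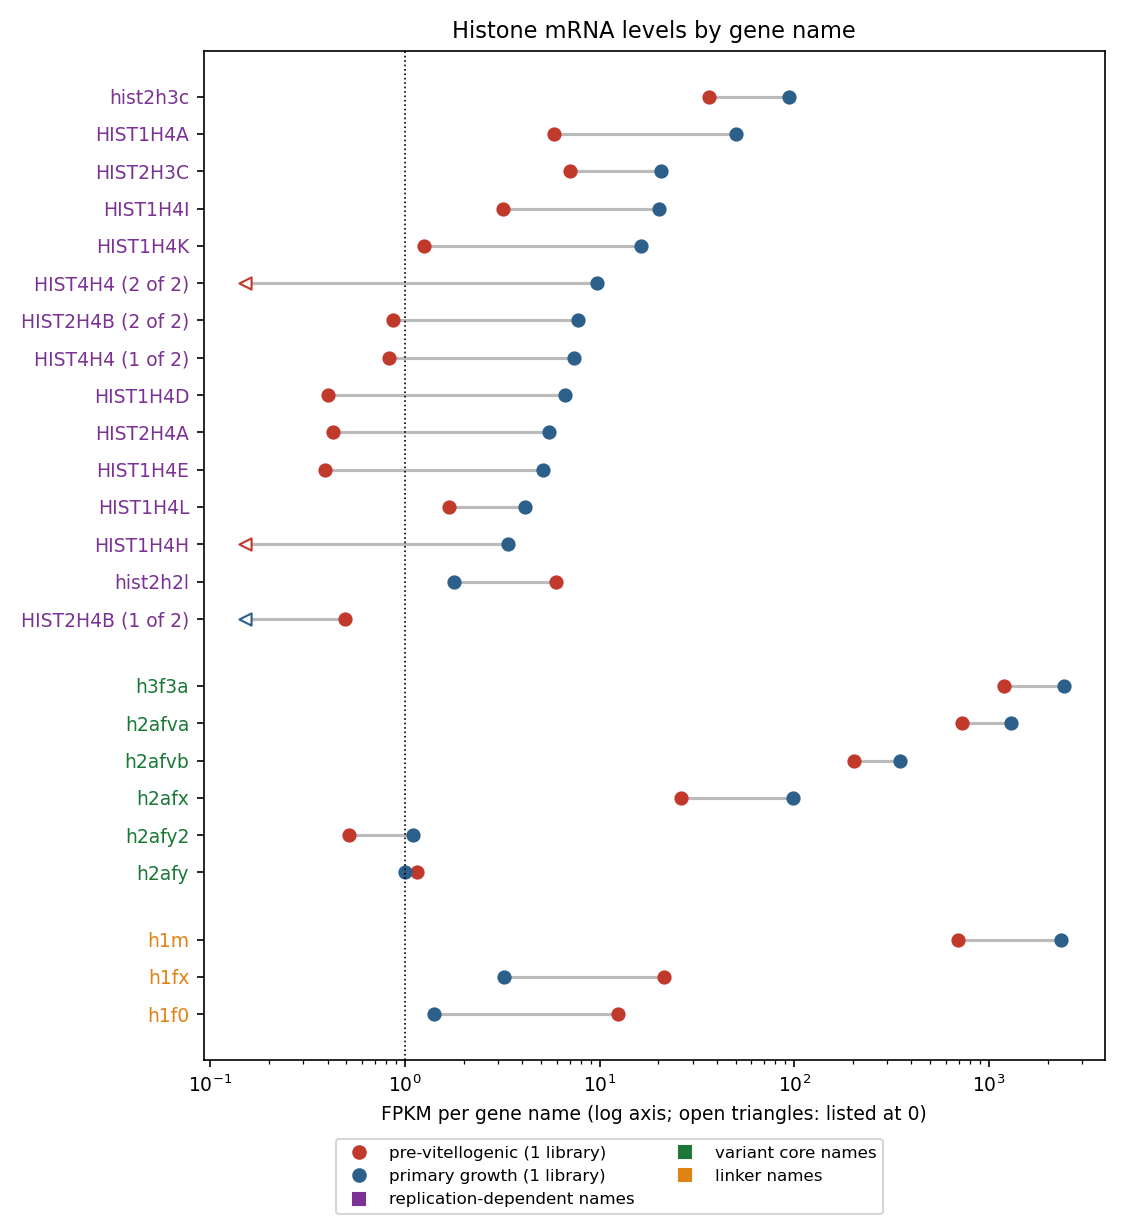
FPKM (horizontal log axis) of each of the 24 histone names (vertical axis, coloured by class) in the PV library (red) and the PG library (blue), joined by a line, with open triangles for names listed at 0 and a dotted line at 1 FPKM. The PV point lies left of the PG point for the 2 H3 names of the replication-dependent class, for 11 of 12 H4 names, for 5 of 6 variant core names and for h1m, and right of it for hist2h2l, h1fx, h1f0, h2afy and HIST2H4B (1 of 2).

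All 12 H4 rows have a length of 312 bases, a coding length with no UTRs, and differences in these libraries followed transcript length. Names were cut into 10 bins of equal size by length. In the bin of shortest names, with a median length of 483 bases, the median difference was -0.21 and 26.2% were lower in PV follicles. In the bin of longest names, with a median of 5106 bases, the median difference was 1.20 and 0.345% were lower. Among 526 names of 250 to 450 bases, the range that holds the H4 names and hist2h3c, 31.0% were lower and 23.6% were higher in PV follicles, with a median difference of -0.17. After the median difference of names of like length was subtracted, 12 of the 14 replication-dependent names were lower and the median was -1.99. Among all names at that setting, of any length, 9.17% were lower and 12.1% were higher. The subtraction moved the centre of each length bin and not its spread. The share called among short names alone was not counted at that setting. Of the 14 names, 7 lay under 1 FPKM in PV follicles and were compared only through their PG level. Any part of short length or of missing UTRs in the size of the H4 difference beyond that subtraction was not tested.

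**Figure D3:**
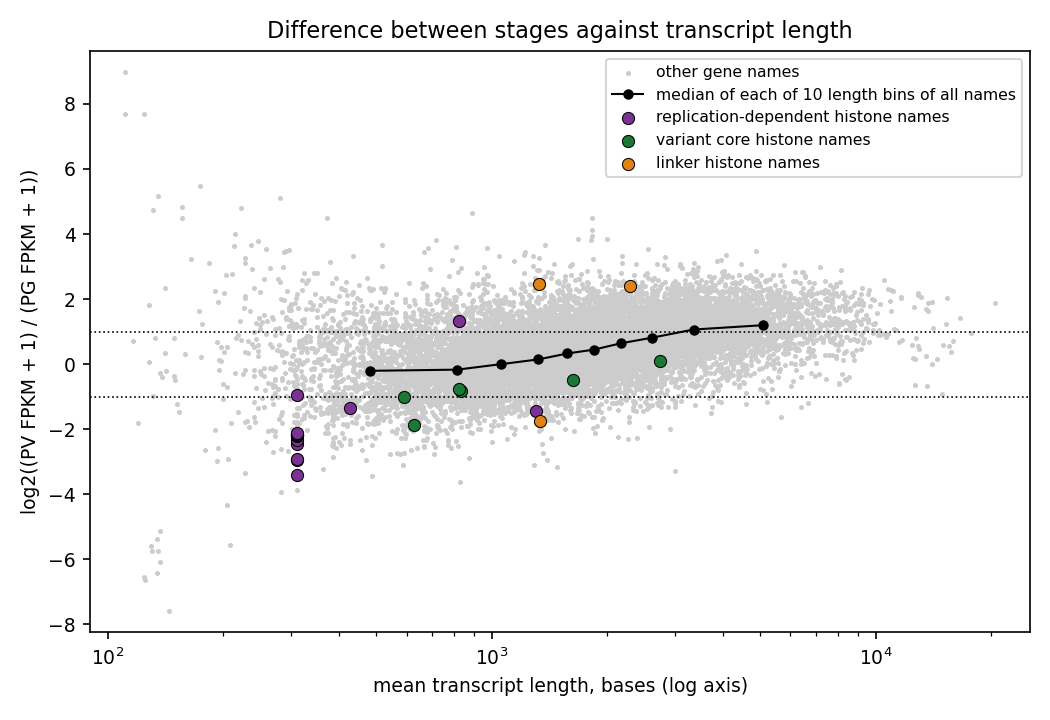
Difference between stages as log2((PV FPKM + 1) / (PG FPKM + 1)) (vertical axis) against mean transcript length in bases (horizontal log axis) for all 14480 names compared (grey) and the histone names (coloured by class). Dotted lines mark 2-fold, and the black line joins the medians of the 10 length bins, which run from -0.21 in the shortest to 1.20 in the longest. Most H4 names, at 312 bases, lie below -2, well under the black line, and h1f0, h1fx and hist2h2l lie above it.

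The replication-dependent H3 genes were lower by a smaller ratio than the H4 genes. The name hist2h3c, shared by 5 gene IDs, was at 36.4 FPKM in PV and 94.3 FPKM in PG follicles, a difference of -1.35. HIST2H3C, which the table keeps as a separate name (chromosome 25, 36123127 to 36124432), was at 7.04 FPKM in PV and 20.6 FPKM in PG follicles, a difference of -1.43. By single gene ID all 6 H3 genes were lower in PV follicles, 4 of them by 2-fold or more, and differences ran from -1.57 to -0.67. Among all gene IDs compared, 7.06% were lower by that rule, and among gene IDs of 250 to 450 bases 38.3%. The model of HIST2H3C has 1306 bases.

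These genes lie in a few places of the genome. On chromosome 7, between 6753295 and 7284328, lie 7 of the H4 gene IDs, all 7 lower in PV follicles, with a median difference of -2.44 and sums of 9.09 FPKM in PV and 100.5 FPKM in PG follicles. Among all gene IDs compared 7.06% were lower, and among those of 250 to 450 bases 38.3%. The limit given for H4 names under 1 FPKM in PV follicles holds for the H4 counts and medians here and on chromosome 25. On chromosome 7 only HIST1H4A and HIST1H4K reached 1 FPKM at both stages. On chromosome 25, between 36106577 and 37399593, lie the other 5 H4 gene IDs and the 6 H3 gene IDs. Of 4 H4 gene IDs compared there, 3 were lower, and the median difference was -2.18. The H4 gene IDs there summed to 6.24 FPKM in PV and 35.5 FPKM in PG follicles. The H3 genes of the same chromosome had a median of -1.29. Near-identical H4 copies may share reads, and the added 1 FPKM limits the differences of names under 1 FPKM. The H4 medians of the 2 chromosomes therefore cannot show whether the 2 regions behaved alike. HIST1H4L on chromosome 25 lay within the range of the H3 genes.

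The exception was hist2h2l, whose name does not say whether it encodes H2A or H2B. It lies outside both regions (chromosome 10, 30723401 to 30724224) and was at 5.94 FPKM in PV and 1.78 FPKM in PG follicles, a difference of 1.32. Differences were also centred on the median of the 12022 names at 1 FPKM or more in both libraries. The call of hist2h2l did not hold after this centring, where the difference was 0.90. Nor did it hold after scaling to the same 75th percentile, where the difference was also 0.90. Its nearest histone neighbour, 213 bases away on the opposite strand, is a gene that the table calls zgc:101846 and a table of current symbols h2ax1. This gene was at 26.3 FPKM in PV and 9.76 FPKM in PG follicles, a difference of 1.34. Both genes of the pair, which are transcribed away from each other, were thus higher in PV follicles without rescaling. So were 28.8% of all gene IDs compared. The centring took the same 0.42 off every difference, which left h2ax1 short of 2-fold as well. At the rescaled settings h2ax1 was not followed.

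**Figure D4:**
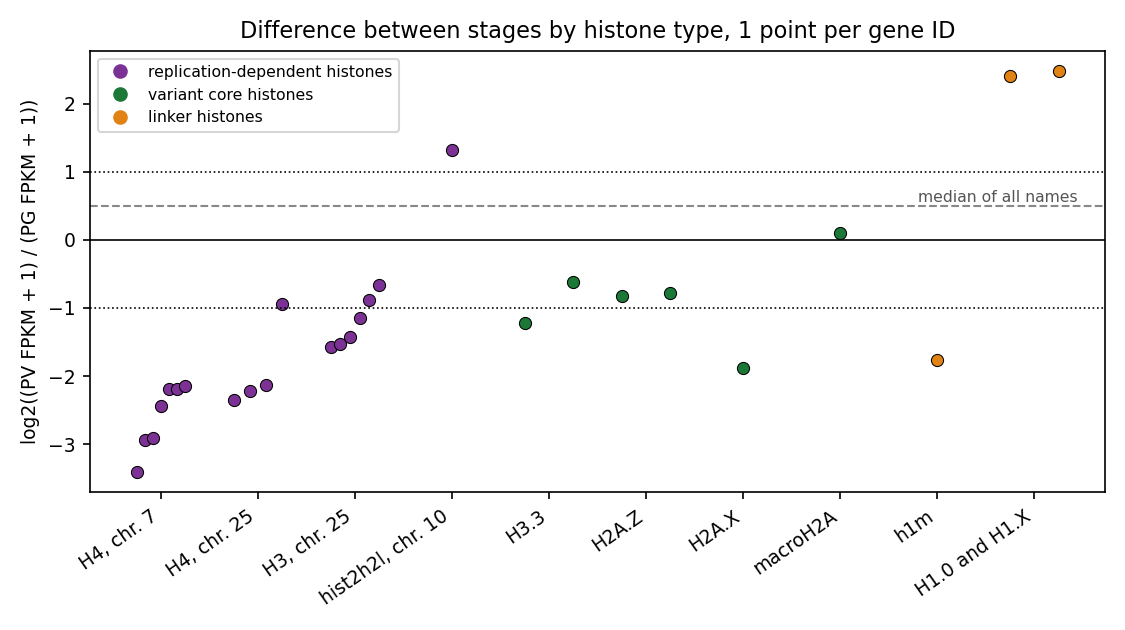
Difference between stages as log2((PV FPKM + 1) / (PG FPKM + 1)) (vertical axis) for each histone gene ID compared, grouped by histone type and, for hist names, chromosome (horizontal axis) and coloured by class. Dotted lines mark 2-fold and the dashed line the median of all names, 0.50. All 7 H4 gene IDs on chromosome 7 lie at or below -2.14, the H3 gene IDs lie between -1.57 and -0.67, and only hist2h2l, h1f0 and h1fx lie above 1.

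Of the 6 variant core names 2 were lower in PV follicles and none passed 2-fold upwards, against 6.53% lower and 29.1% higher among all names. Their median difference was -0.80, against 0.50 for all names. Mean lengths of h3f3a, h2afx, h2afva and h2afvb lay between 590 and 831 bases. The 2 bins of shortest names, with median lengths of 483 and 814 bases, had median differences of -0.21 and -0.17. In these bins 26.2% and 14.4% of names were lower. After the median difference of names of like length was subtracted, the variant core median was -0.76 and 1 name was lower. The replacement H3 variant H3.3, which is laid down at active genes and on decondensing sperm chromatin, is encoded by h3f3a, the most abundant histone name of the table. It was at 1202 FPKM in PV and 2425 FPKM in PG follicles, a difference of -1.01 that only just reached 2-fold. With both libraries rescaled to the same FPKM total the difference was -0.75, short of 2-fold. It was also short of 2-fold, at -0.81, after the median difference of names of like length was subtracted. After centring on the median of names at 1 FPKM or more in both libraries it was -1.43. The name covers 2 gene IDs. The gene on chromosome 24 (39191743 to 39196042) was at 725 FPKM in PV and 1692 FPKM in PG follicles, a difference of -1.22. The gene on chromosome 3 (45814483 to 45816236) was at 477 FPKM in PV and 732 FPKM in PG follicles, a difference of -0.62. By these estimates most of the drop in h3f3a FPKM was at the chromosome 24 gene. The largest transcript row of that gene, at 1003 FPKM in PG follicles, had deposited bounds of 0 and 2877 FPKM. The split between the 2 genes is therefore uncertain.

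Of all FPKM of H3 names, H3.3 made up 96.5% in PV and 95.5% in PG follicles. The replication-dependent H3 names held the other 3.48% in PV and 4.52% in PG follicles. Among these names the make-up was thus close at the 2 stages although the levels were not. This covers only genes found by the name rule, and the make-up of all H3 mRNA may be quite different. The clone-named si:dkeyp-46h3.6, which may be an H3 gene, was at 609 FPKM in PV and 1523 FPKM in PG follicles. The replication-dependent H3 names summed to only 43.4 FPKM in PV and 114.9 FPKM in PG follicles. Whether poly(A) selection, not stated for these libraries, lowered their share was not tested.

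H2A.Z, the variant of H2A found at promoters, is encoded by h2afva and h2afvb. The gene h2afva (chromosome 5, 14853213 to 14858612) was at 729 FPKM in PV and 1292 FPKM in PG follicles, a difference of -0.82. The gene h2afvb (chromosome 10, 46362731 to 46372778) was at 202 FPKM in PV and 347 FPKM in PG follicles, a difference of -0.78. Both were lower but within 2-fold, and h2afva made up 78.3% of their sum in PV and 78.8% in PG follicles. After centring on the median of names at 1 FPKM or more in both libraries, both passed 2-fold, at -1.24 and -1.19. At the same FPKM total they were at -0.56 and -0.51.

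H2A.X, the variant phosphorylated at DNA breaks, had a wider difference at its gene within the name rule. This gene, h2afx (chromosome 5, 32173719 to 32174344), was at 26.1 FPKM in PV and 99.0 FPKM in PG follicles, a difference of -1.88. Genes with H2A.X symbols outside the rule went both ways. In PV follicles h2ax1 was higher, with a difference of 1.34 and a level of 26.3 FPKM, and h2ax2 was lower, with a difference of -1.77. The macroH2A genes h2afy and h2afy2, whose products mark silent chromatin in mammals, were at the edge of what was compared. For h2afy the levels were 1.15 FPKM in PV and 0.995 FPKM in PG follicles, and for h2afy2 they were 0.514 FPKM in PV and 1.10 FPKM in PG follicles. Neither was called on the scale with 1 FPKM added, although h2afy2 as deposited was 2.14-fold lower in PV follicles.

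Linker histones went in opposite directions. The oocyte linker histone gene h1m (scaffold Zv9_NA660, 14113 to 19625) was at 691 FPKM in PV and 2338 FPKM in PG follicles, a difference of -1.76. The gene h1f0, for histone H1.0, known in mammals from cells that have stopped dividing (chromosome 24, 39080413 to 39081743), was at 12.4 FPKM in PV and 1.40 FPKM in PG follicles, a difference of 2.48. The gene h1fx, for histone H1.X (chromosome 6, 40700381 to 40702677), was at 21.4 FPKM in PV and 3.22 FPKM in PG follicles, a difference of 2.41. These 2 were the widest differences towards PV follicles of any histone name. The models of h1fx, h1f0 and h1m have 2297, 1331 and 1336 bases. After the median difference of names of like length was subtracted, the differences were 1.76 for h1fx, 2.33 for h1f0 and -1.90 for h1m.

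Despite these differences h1m remained the main linker histone mRNA at 95.3% of linker FPKM in PV and 99.8% in PG follicles. Together h1f0 and h1fx held 4.66% in PV and 0.197% in PG follicles. Markers of the somatic follicle layer were higher in PV follicles as well. Of 10 follicle cell markers compared, 9 were higher, against 29.1% of all names. In PG follicles 9 of the 10 lay under 1 FPKM and were compared only through their PV level, so they could only be on the higher side. The 14 found in the table summed to 32.6 FPKM in PV and 4.40 FPKM in PG follicles. Of these fshr, nr5a1a and star were listed at 0 in PG follicles. Of 9 oocyte markers compared, 4 were lower and 1 was higher, against 6.53% lower and 29.1% higher among all names. Those lower were zp2.1, zp3.2, zp3b and zar1, while vasa was higher and gdf9, bmp15, dazl and buc were within 2-fold. The 10 found summed to 2788 FPKM in PV and 7058 FPKM in PG follicles. Of these sums zp3.2 alone held 993 FPKM in PV and 3478 FPKM in PG follicles. The part of follicle cells or of oocyte RNA content in the histone differences was not tested. Erythrocyte markers gave no call, with only hbaa1 high enough to compare, at 51.6 FPKM in PV and 55.1 FPKM in PG follicles.

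The authors deposited a lower and an upper bound with each FPKM value, and these were wide. For h1m they ran from 73.0 to 1308 FPKM in PV and from 0 to 4964 FPKM in PG follicles. For h1fx they ran from 0.216 to 42.5 FPKM in PV and from 0 to 7.55 FPKM in PG follicles. In all 39 histone rows the intervals of the stages overlapped, and the lower bound was 0 in 28 of 32 rows above 0 in PV and in 34 of 36 rows above 0 in PG follicles. No histone row thus had separate intervals at the 2 stages. How common such overlap is among all genes was not counted, so it is not shown to be a trait of histones.

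Some histone genes escape the name rule because the table gives them no name or a clone name. By gene ID, 9 more carry a histone symbol in a table of current symbols, a set put together after values were seen. Of these 9, 4 were lower and 1 was higher, against 7.06% lower and 28.8% higher among all gene IDs. Among gene IDs of 250 to 450 bases, where several of these genes fall, 38.3% were lower. The median difference of the 9 was -0.98. They had sums of 160.4 FPKM in PV and 267 FPKM in PG follicles. The genes h2ax2, hist1h2a11 and h1l1 lie in or beside the chromosome 7 region. The linker gene h1l1 was within 2-fold, at 3.50 FPKM in PV and 7.40 FPKM in PG follicles, and the others were lower. The first of these, an H2A.X gene, was at 11.03 FPKM in PV and 40.0 FPKM in PG follicles, a difference of -1.77, and hist1h2a11 was at 5.70 FPKM in PV and 21.1 FPKM in PG follicles, a difference of -1.72. The clone-named gene si:ch211-190p8.2, now H2BK1, was at 21.1 FPKM in PV and 88.0 FPKM in PG follicles, a difference of -2.01. Further H3.3 genes were within 2-fold, with H3-3B at 54.3 FPKM in PV and 48.3 FPKM in PG follicles and h3f3b.1 at 36.8 FPKM in PV and 46.9 FPKM in PG follicles.

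Another 2 abundant genes have clone names listed as synonyms of histone symbols in the RefSeq table of the GRCz12tu assembly, which places those symbols on other chromosomes, so their identity is uncertain. The gene si:dkeyp-46h3.6 (synonym of h3c13a) was at 609 FPKM in PV and 1523 FPKM in PG follicles, a difference of -1.32. A gene on chromosome 11 (ENSDARG00000077741, its name a synonym of hist1h2a6) was at 189 FPKM in PV and 725 FPKM in PG follicles, a difference of -1.94. Either one alone exceeded the sum of all hist names, and neither is counted in the class sums, ratios and shares above.

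Genes that act on histone mRNA were compared next. Of 12 compared, 1 was lower and 2 were higher in PV follicles, with a median difference of 0.23, against 6.53% lower and 29.1% higher among all names. The lower one, slbp2, encodes a stem-loop-binding protein whose frog counterpart holds stored histone mRNA silent in the oocyte, and is called zgc:158856 in the table. It was at 681 FPKM in PV and 1761 FPKM in PG follicles, a difference of -1.37, while slbp, which serves histone mRNA processing in cycling cells, was within 2-fold at 291 FPKM in PV and 374 FPKM in PG follicles. The higher ones encode proteins of the histone locus body, the site where histone genes are transcribed. They were npat, at 58.3 FPKM in PV and 19.6 FPKM in PG follicles (difference 1.53), and casp8ap2, at 36.7 FPKM in PV and 8.03 FPKM in PG follicles (difference 2.06). Both have long models, 2664 bases for npat and 6566 for casp8ap2, on the side of the length trend that favoured PV follicles. The mean length of slbp2 was 1068 bases.

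Histone chaperones carry histones to and from DNA. Of 29 compared, 2 were lower and 8 were higher, against 6.53% lower and 29.1% higher among all names, and the median difference was 0.30. The lower ones were the nucleoplasmin genes, whose products store H2A and H2B in eggs of frogs. The gene npm2b was at 238 FPKM in PV and 980 FPKM in PG follicles, a difference of -2.04, and npm2a was at 103 FPKM in PV and 233 FPKM in PG follicles, a difference of -1.17. Both have short models, 734 bases for npm2b and 896 for npm2a, on the side of the length trend that favoured PG follicles. The most abundant chaperone was nasp, which binds H3, H4 and linker histones, at 1697 FPKM in PV and 2402 FPKM in PG follicles, a difference of -0.50. Among the higher ones was hira, the chaperone that deposits H3.3, at 43.8 FPKM in PV and 18.3 FPKM in PG follicles, a difference of 1.22. The mean length of hira was 3774 bases. The remodeller gene srcap, whose product exchanges H2A for H2A.Z, was at 19.9 FPKM in PV and 3.73 FPKM in PG follicles, a difference of 2.14, on a mean length of 12925 bases.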

How the data were processed

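The deposited mRNA table holds FPKM per transcript with a lower and an upper bound, as made by the authors. In the submitters' processing notes stand Cufflinks 2.2.1 and TopHat2 2.0.11, with Zv9 as the genome build and no roles given. Per the labels' protocols, libraries were paired-end. The table has 56711 rows of 33734 gene IDs, and 779 gene IDs without a name were kept apart. Rows were summed by exact name, so HIST2H3C and hist2h3c stayed separate. Summed FPKM was 608220 in PV and 730172 in PG follicles. All 39 histone rows were marked as successful estimates. The length of a name is the mean of its transcripts weighted by FPKM.

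With 1 library per stage no test was made. Every histone name at 1 FPKM or more could be named, as could the widest and most abundant members of related lists. The members, lists and rules were chosen with earlier results of these data known. The planned search for clone-named histones by RefSeq description was replaced by current symbols. The summing and calling steps were tested on simulated data. Small RNA values were not used. Python 3.11.15, numpy 2.4.6 and pandas 2.3.3 were used.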

Additional observations from a re-analysis of the deposited data

How the results depend on the processing

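Other pseudocounts, filters, scalings, a length correction, gene IDs in place of names and the most abundant transcript in place of the sum were tried. No class median, class sum or called histone name changed sign under any of them. The count of lower replication-dependent names stayed between 9 and 13, of 12 to 15 compared, and was 14 of 18 by gene ID. At the main setting 7 of the 14 compared lay under 1 FPKM in PV follicles, so this count is partly fixed by the filter. No setting was limited to the 7 at 1 FPKM or more at both stages, of which 5 were lower. Linker names stayed at 1 lower and 2 higher. Among all names, 3.42% (pseudocount of 5 FPKM) to 14.6% (same 75th percentile) were lower at these settings. Between 12.1% (length trend removed) and 40.1% (same FPKM total without mitochondrial genes) were higher. No replication-dependent name was called higher (0 in each case) with a pseudocount of 5 FPKM, after centring on the median, or at the same 75th percentile. The replication-dependent median moved to -3.05 with a pseudocount of 0.1 FPKM and to -1.10 with 5 FPKM, and the linker median to 1.44 with 5 FPKM and 1.76 with the length trend removed. The count of lower variant core names was 4 after centring and at the same 75th percentile, and 1 at the same FPKM total, at that total without mitochondrial genes and with the length trend removed. Among all names, 13.2% and 14.6% were lower at the settings with 4, and 4.21%, 3.69% and 9.17% in turn at those with 1. The variant core median passed 2-fold after centring (-1.22) and at the same 75th percentile (-1.36), as did the summed ratio (-1.36 and -1.50), which was -1.01 with the most abundant transcript. Both settings lowered PV relative to PG follicles. Centring took 0.42, the median of names at 1 FPKM or more in both libraries, off every difference. Scaling to the same 75th percentile moved the log2 ratio of levels by -0.56 before 1 FPKM was added, so low names moved less. Centring made 13.2% of all names lower and 15.2% higher, with 18 of 23 histone names lower and 2 higher. No paired analysis was possible because each stage has 1 mRNA library. The depth of these libraries is unknown, so levels under 1 FPKM, and names listed at 0, carry no detection limit.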

Other observations

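DNA replication genes, whose use in S phase accompanies histone synthesis, were compared as well. Of 46 such genes, 44 were compared, with 3 higher and 2 lower in PV follicles, against 29.1% higher and 6.53% lower among all names. Their median difference was 0.14, against 0.50 for all names. The subunit genes pola1 (63.5 FPKM in PV and 26.8 FPKM in PG follicles), pole (21.1 FPKM in PV and 8.29 FPKM in PG follicles) and gins4 (42.8 FPKM in PV and 18.9 FPKM in PG follicles) were higher. Mean lengths were 5161 bases for pola1 and 7154 for pole, where the length trend favoured PV follicles, but 675 for gins4. The ribonucleotide reductase gene rrm2 was lower, at 187 FPKM in PV and 453 FPKM in PG follicles, as was rpa3, at 19.2 FPKM in PV and 43.5 FPKM in PG follicles. Mean lengths were 1801 bases for rrm2 and 643 for rpa3. The replication clamp gene pcna was within 2-fold, at 402 FPKM in PV and 658 FPKM in PG follicles. Of 6 markers of cycling cells, mki67 (85.5 FPKM in PV and 34.3 FPKM in PG follicles) and top2a (174 FPKM in PV and 66.0 FPKM in PG follicles) were higher, a share near the 29.1% of all names. Their mean lengths of 6764 and 2839 bases fall where the length trend favoured PV follicles.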
